A study of Mus musculus with 6 samples.

Results

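Collagens, laminins and their basement membrane partners were followed in dissected renal proximal tubules of Clcn5 knockout mice and of wild type mice. The set was chosen by gene symbol, as every collagen (Col) and laminin (Lama, Lamb, Lamc) gene on the array plus Fn1, Nid1, Nid2, Hspg2, Agrn, Sparc, Lox and Loxl1, which gave 60 of the 18193 named genes. Of these 60, 22 encode basement membrane components, 11 encode fibrillar collagens and 27 belong to neither class. The product of Clcn5 exchanges chloride for protons across endosome membranes, and the labels describe the knockout mice only as lacking Clcn5, without naming the deleted part, the strain or the age. The study hybridised 3 Affymetrix mouse arrays with RNA from Clcn5 knockout tubules and 3 with RNA from wild type tubules, and no further allele or treatment is named for either group. Each array carried RNA pooled over mice, 3 to 4 per pool by the series' description and 7 by the records stored with the arrays. About 80 to 100 tubule pieces of 2 mm were taken from a kidney. The pools are called biological replicates in those records, so the p-values measure the spread between pools of mice. The targeted gene followed its labels: Clcn5 had signals of 352, 322 and 269 in knockout and of 1013, 709 and 1029 in wild type (log2 change −1.53, SE 0.14, limma adjusted p = 9.32e-05). These are from its brightest probe set, 1420295_x_at. Further probe sets of the gene were lower too: 1429400_at averaged 115 in knockout and 839 in wild type (log2 change −2.87). On 1450787_at and 1441831_x_at the log2 changes were −2.10 and −1.50. Where these probes lie relative to the deletion was not given in the sources used here.

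A basement membrane is a thin sheet of matrix beneath epithelial and endothelial cells. Its network of type IV collagen is joined to a laminin network by nidogens, perlecan and agrin. Type IV collagen chains are made from gene pairs that lie head to head, and their products assemble in fixed trios: the Col4a1 and Col4a2 chains are found in almost all basement membranes, while the Col4a3, Col4a4 and Col4a5 chains form the mature network of the glomerular filter and of some tubule segments. Fibrillar collagens such as types I and III build the interstitial fibres between tubules and are made mainly by fibroblasts.

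The called rises were 4 of 18 tested basement membrane members, and 1 of 6 tested fibrillar collagens fell. The other members of these classes did not pass. Col4a1, Col4a3, Col4a4 and Col18a1 were higher in knockout tubules, by 1.31-fold to 1.42-fold. Col27a1, a fibrillar collagen, was 1.43-fold lower and Col8a1, a short-chain collagen, 1.70-fold lower. Of the 60 members, 39 passed the filter on dim signals, a mean signal of 41.9 over the 6 arrays, and 21 did not. By limma at an adjusted p under 0.05, 4 of the 39 tested members rose, 2 fell and 33 did not pass. Over all 11620 tested genes 6.48% passed, 3.24% in each direction. The 3 knockout values lay wholly above the 3 wild type values in 9 tested members and wholly below them in 6, where 25.2% of all tested genes had groups without overlap, 13.6% above and 11.6% below. At an unadjusted p under 0.05 there were 13 members, 8 higher and 5 lower, where 19.4% of all tested genes reached it. No tested member changed by as much as 2-fold. In pooled tissue such as this, a change in the number of cells of a type and a change in RNA per cell cannot be told apart.

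The promoter sequences of 4 of the 6 called members, Col4a1, Col4a4, Col27a1 and Col8a1, and of Col4a2, which shares its start region with Col4a1, are shown because the type IV genes are read from such paired promoters. RefSeq's promoter table (GRCm38.p6) held 42 of the 60 members, and the 250 bases before the annotated start are printed. Col4a3 and Col18a1, the other called members, are not shown. Capitals mark matches, on either strand, to the GC box GGGCGG, the CCAAT box CCAAT and the TATA box TATAAA, which do not overlap each other.
Col4a1, chr8:11312827-11313076, minus strand: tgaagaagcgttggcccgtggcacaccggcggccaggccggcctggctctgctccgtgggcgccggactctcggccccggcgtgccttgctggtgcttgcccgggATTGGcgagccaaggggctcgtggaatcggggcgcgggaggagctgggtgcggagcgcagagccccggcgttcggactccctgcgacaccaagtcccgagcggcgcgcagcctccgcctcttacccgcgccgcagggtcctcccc
Col4a2, chr8:11312555-11312804, plus strand: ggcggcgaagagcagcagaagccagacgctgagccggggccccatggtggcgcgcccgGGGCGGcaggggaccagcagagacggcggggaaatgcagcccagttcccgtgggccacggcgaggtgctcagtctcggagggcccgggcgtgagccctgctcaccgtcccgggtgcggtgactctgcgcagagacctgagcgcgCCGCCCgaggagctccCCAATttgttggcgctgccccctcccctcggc
Col4a4, chr1:82586850-82587099, minus strand: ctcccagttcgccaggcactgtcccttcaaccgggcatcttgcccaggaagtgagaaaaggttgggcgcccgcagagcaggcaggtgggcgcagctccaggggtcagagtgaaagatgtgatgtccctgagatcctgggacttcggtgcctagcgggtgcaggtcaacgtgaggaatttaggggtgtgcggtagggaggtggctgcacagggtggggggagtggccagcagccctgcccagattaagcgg
Col27a1, chr4:63215162-63215411, plus strand: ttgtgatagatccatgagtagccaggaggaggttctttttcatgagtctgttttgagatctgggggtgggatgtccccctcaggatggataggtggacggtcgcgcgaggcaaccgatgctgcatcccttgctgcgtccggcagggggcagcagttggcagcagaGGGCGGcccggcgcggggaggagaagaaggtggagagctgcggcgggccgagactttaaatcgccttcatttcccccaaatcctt
Col8a1, chr16:57754738-57754987, minus strand: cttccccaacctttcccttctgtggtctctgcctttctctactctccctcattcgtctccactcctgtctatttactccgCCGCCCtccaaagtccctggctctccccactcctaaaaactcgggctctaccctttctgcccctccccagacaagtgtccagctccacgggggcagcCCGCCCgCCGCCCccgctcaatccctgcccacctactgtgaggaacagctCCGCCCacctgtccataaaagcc

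The annotated starts of Col4a1 and Col4a2 lie 21 bases apart on opposite strands, so each window reaches into its partner gene. The Col4a1 window held 1 CCAAT match and no GC box match, and the Col4a2 window held 1 CCAAT match and 2 GC box matches. The Col4a4 window held none of the 3 motifs. Col27a1 had 1 GC box match and Col8a1 had 4, and no TATA box match lay in any of the 5 windows. Of all 32851 windows of this length in the table, 32.7% held the GC box, 33.8% the CCAAT box and 12.4% the TATA box. The C and G content was 74.4% for Col4a1 and 73.6% for Col4a2, against a median of 52.4% over all windows. These matches describe the letters only.

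Of Col4a1 and Col4a2, the chains of the widespread type IV network, Col4a1 rose and Col4a2 did not pass. The Col4a1 signal was 1458, 1521 and 1600 on the knockout arrays and 1147, 1143 and 1200 on the wild type arrays. Every knockout array stood above every wild type array, and the change was 1.31-fold (log2 change 0.39, SE 0.06, limma adjusted p = 0.00286). The Col4a2 signal was 578, 585 and 705 in knockout and 511, 547 and 549 in wild type. These groups did not overlap either. Knockout array 3 was the highest, the log2 change was 0.12 without it, and the gene did not pass (log2 change 0.21, 95% interval 0.02 to 0.40, adjusted p = 0.198). The interval of Col4a2 overlaps that of Col4a1, 0.26 to 0.53, and the difference between them was not tested.

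The Col4a3 and Col4a4 genes of the second pair changed nearly alike. Col4a3 had signals of 713, 725 and 819 in knockout and of 563, 538 and 484 in wild type. It was 1.42-fold higher (log2 change 0.51, SE 0.08, adjusted p = 0.00298), with a clear gap between the groups. Col4a4 had signals of 1074, 1086 and 1039 in knockout and of 727, 764 and 777 in wild type. It was 1.41-fold higher (log2 change 0.50, SE 0.06, adjusted p = 0.000518), and its 3 arrays of each group lay close together. The partners of the remaining pair, on the X chromosome, start 1343 bases apart. Col4a5, which completes the trio with Col4a3 and Col4a4, had signals of 247, 281 and 258 in knockout and of 227, 276 and 245 in wild type, with overlapping groups (log2 change 0.07, 95% interval −0.14 to 0.29). Col4a6 averaged 64.2 ± 6.18 in knockout and 51.9 ± 4.92 in wild type (SD, n = 3 each, as for all such values) and did not pass (log2 change 0.31, 95% interval −0.12 to 0.73). All 6 type IV chains were above 0, with a median of 0.35 where the median of all tested genes was 0.01.

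**Figure D1:**
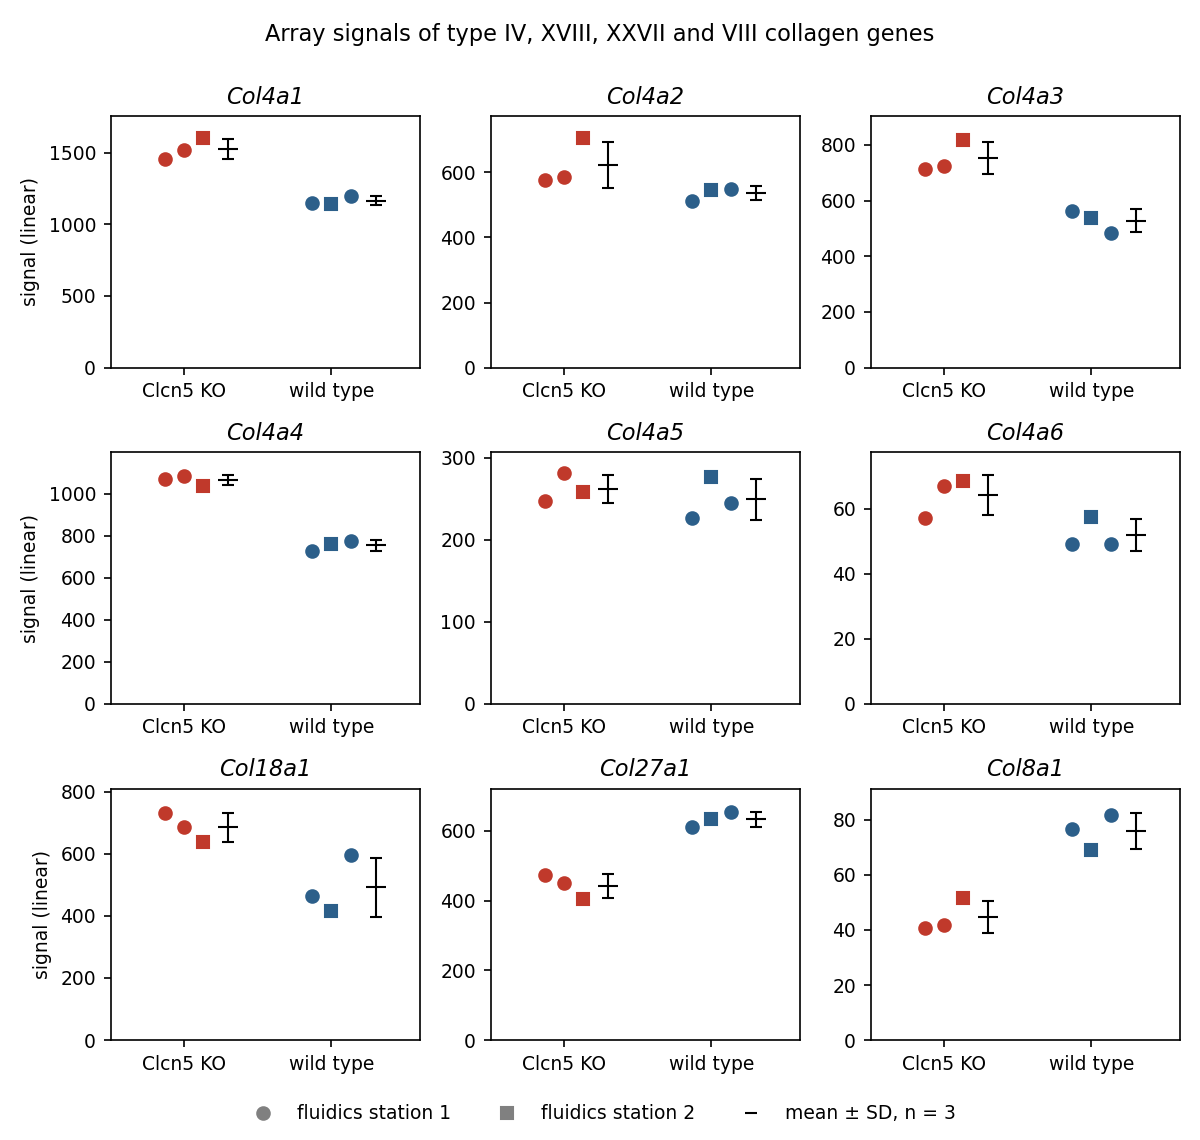
Signals on a linear scale, starting at 0, of the 6 type IV collagen genes and of Col18a1, Col27a1 and Col8a1 on the 3 Clcn5 knockout and 3 wild type arrays, with circles and squares for the fluidics stations and bars for the mean ± SD (n = 3). The knockout arrays stand above all wild type arrays for Col4a1, Col4a2, Col4a3, Col4a4 and Col18a1 and below them for Col27a1 and Col8a1, while Col4a5 and Col4a6 overlap.

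Col18a1 encodes the core of a basement membrane proteoglycan whose end fragment is endostatin, and Col15a1 encodes its closest relative. The Col18a1 signal was 733, 685 and 637 in knockout and 464, 414 and 597 in wild type. Wild type array 3 came close to the knockout arrays without overlapping them, and the gene was 1.41-fold higher (log2 change 0.49, SE 0.12, adjusted p = 0.0336). The call of Col18a1 ended without knockout array 1 (adjusted p = 0.0922) or 2 (0.0952), without wild type array 1 (0.123) or 2 (0.120), without the intensity trend (0.140), within fluidics station 1 (0.128) and with no filter (0.0644). Col15a1 averaged 100.4 ± 8.80 in knockout and 102 ± 10.8 in wild type, with overlapping groups (log2 change −0.02, 95% interval −0.34 to 0.29).

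The other probe sets of the changed members had the same direction. Above the filter, 5 of the 6 changed members had a further probe set, 6 in all, and each had the sign of the probe set that represented its gene. Col4a4 rose on 1440250_at as well (814, 852 and 917 in knockout, 569, 524 and 448 in wild type; log2 change 0.75, limma adjusted p = 0.000966 over all kept probe sets). A further probe set of Col4a4, 1425772_at, was at 0.38 (adjusted p = 0.0509). The further probe sets of Col4a1 and Col4a3 did not pass by themselves, at 0.35 (adjusted p = 0.134) and 0.42 (adjusted p = 0.173). Col18a1 was at 0.17 on 1418237_s_at (adjusted p = 0.243), a smaller value than on the probe set that represented it. Over all members, 9 of 15 further probe sets had the sign of their gene's first.

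**Figure D2:**
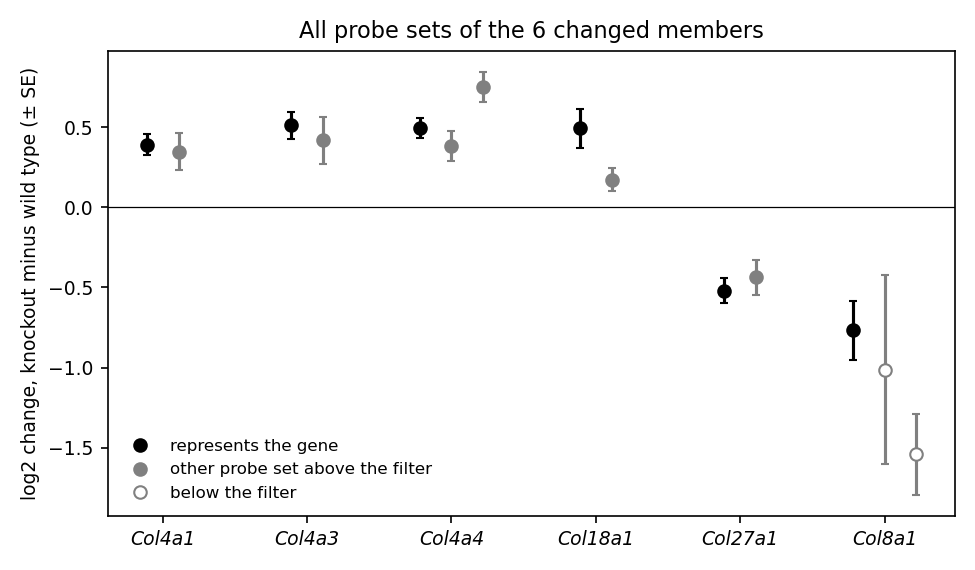
Log2 change, Clcn5 knockout minus wild type, with its standard error, for all probe sets of the 6 changed members; black points represent the gene, grey points are further probe sets and open points fell below the filter. All probe sets of Col4a1, Col4a3, Col4a4 and Col18a1 lie above 0, and all of Col27a1 and Col8a1 below 0.

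Laminin chains, which form the cell-facing network, were not called in either direction. Of the 10 laminin genes on the array 6 were tested, their log2 changes ran from −0.13 to 0.32 with a median of 0.02, and 3 lay above 0. Lamc1, the gamma chain shared by most laminins, had signals of 204, 159 and 197 in knockout and of 155, 139 and 154 in wild type. Its groups did not overlap and it did not pass (log2 change 0.32, 95% interval 0.05 to 0.58, adjusted p = 0.175). Lama5, the alpha chain of mature kidney basement membranes, averaged 315 ± 45.4 in knockout and 324 ± 40.3 in wild type (log2 change −0.04, 95% interval −0.31 to 0.22). Lama1, an alpha chain of embryonic and tubule basement membranes, was at 0.08 (−0.32 to 0.47) and Lama3, of epithelial anchoring laminins, at −0.13 (−0.36 to 0.10). The beta chains Lamb1 and Lamb2 were at 0.10 (−0.15 to 0.35) and −0.04 (−0.43 to 0.35). The further probe sets of Lamb1 were at 0.10 and −0.31. That of Lama5, 1427010_s_at, had the opposite sign to its first, at 0.29 (126 ± 15.1 in knockout, 103 ± 16.8 in wild type; adjusted p = 0.368 over all kept probe sets). Lama2, Lama4, Lamb3 and Lamc3 fell below the filter.

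The linkers between the networks were not called either. Perlecan, encoded by Hspg2, had signals of 372, 230 and 234 in knockout and of 324, 334 and 372 in wild type. Knockout array 1 lay among the wild type arrays (log2 change −0.34, 95% interval −0.70 to 0.02, adjusted p = 0.289), and without that array Hspg2 was called lower (−0.57, adjusted p = 0.00585). Its further probe set, 1418670_s_at, was at 0.02. Agrn, which encodes the proteoglycan agrin, averaged 296 ± 25.8 in knockout and 289.5 ± 19.3 in wild type, with a log2 change of 0.03 (−0.17 to 0.24). The nidogen genes Nid1 and Nid2 were at 0.11 (−0.26 to 0.47) and 0.23 (−0.15 to 0.61).

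Among the fibrillar collagens 1 of 6 tested genes fell and none rose, where 3.24% of all tested genes passed in each direction. Col27a1, a fibrillar collagen known from cartilage, had signals of 473, 451 and 405 in knockout and of 612, 634 and 655 in wild type. The groups were well apart and the gene was 1.43-fold lower (log2 change −0.52, SE 0.07, adjusted p = 0.00166). Its other probe set, 1429549_at, gave 221, 199 and 263 in knockout and 304, 316 and 299 in wild type (log2 change −0.44, adjusted p = 0.0471 over all kept probe sets).

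The collagens of interstitial fibres did not pass. Col1a2, a chain of type I collagen, averaged 146 ± 21.9 in knockout and 141 ± 3.09 in wild type (log2 change 0.04, 95% interval −0.25 to 0.32). Col3a1, which makes type III collagen, had signals of 105, 79.6 and 92.7 in knockout and of 62.2, 73.0 and 59.8 in wild type, without overlap (log2 change 0.50, 95% interval 0.12 to 0.88, adjusted p = 0.132). Col5a2, a chain that regulates fibril width, had the opposite sign (41.7, 35.1 and 32.5 in knockout, 64.6, 48.1 and 54.0 in wild type; log2 change −0.61, adjusted p = 0.175). Col5a1 and Col5a3, further chains of type V collagen, were at −0.13 (−0.65 to 0.40) and −0.21 (−0.63 to 0.21), and a further probe set of Col5a1 was at −0.46 (adjusted p = 0.335 over all kept probe sets). Col1a1, Col2a1, Col11a1, Col11a2 and Col24a1 fell below the filter. Col1a1 averaged 41.4 ± 11.6 in knockout and 28.0 ± 6.28 in wild type, too dim for a test here.

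Set side by side, 4 of 18 tested basement membrane members rose and none fell, and none of 6 tested fibrillar collagens rose and 1 fell. Over all tested genes 3.24% passed in each direction. Col8a1, which fell, was classed with neither and is outside these counts. The median log2 change was 0.10 for the basement membrane members and −0.17 for the fibrillar collagens. These medians only describe the tested members: Col5a2, at a mean of 36.4 in knockout and 55.6 in wild type, passed the filter of 41.9 through its wild type signals, and with a stricter filter the fibrillar median was −0.085. Without type IV collagen, the remaining 12 basement membrane members had a median of 0.05 and 1 rise, Col18a1. When the dim members were included, the medians were 0.10 over 22 basement membrane genes and 0.04 over 11 fibrillar collagens, so the sign of the fibrillar median depended on the filter. The basement membrane median was 0.18 without knockout array 1 or without wild type array 2 and 0.06 without wild type array 3. The fibrillar median was −0.02 without knockout array 2, −0.33 without knockout array 3 and −0.34 within fluidics station 1.

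The same comparison was made within each array by centring every gene's log2 signal on its mean over the 6 arrays. The mean of the basement membrane members minus that of the fibrillar collagens was 0.13, 0.24 and 0.09 on the knockout arrays and −0.17, −0.10 and −0.19 on the wild type arrays. The knockout arrays lay above all wild type arrays. The fibrillar mean includes Col5a2 (log2 change −0.61), which passed the filter through its wild type signals. The separation without Col5a2 was not computed. The fibrillar mean by itself was −0.05, −0.21 and 0.02 in knockout and 0.07, 0.06 and 0.10 in wild type. Without Col27a1 it was −0.02, −0.20 and 0.11 in knockout and 0.05, 0.02 and 0.06 in wild type, so the groups overlapped and the difference was −0.08 in place of −0.15. With the dim members included this difference was −0.09, 0.28 and −0.14 in knockout and −0.15, 0.05 and 0.04 in wild type, and the groups overlapped. These means describe classes whose members differed in sign and size and carry no test.

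**Figure D3:**
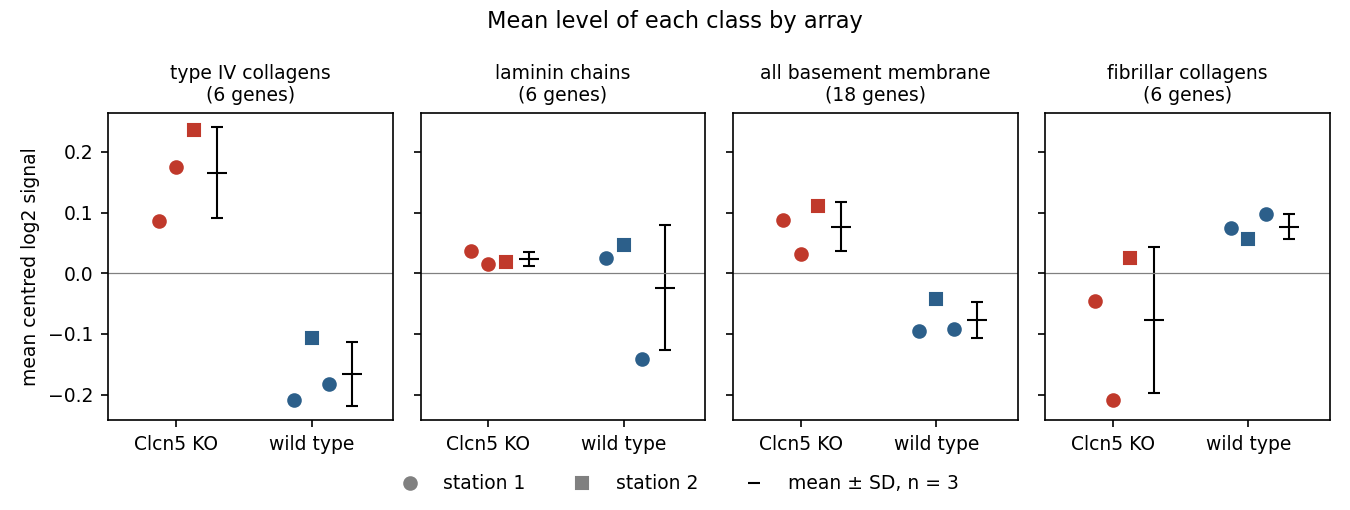
Mean centred log2 signal by array for the 6 type IV collagen genes, the 6 tested laminin chains, all 18 tested basement membrane members and the 6 tested fibrillar collagens, with bars for the mean ± SD (n = 3) and shapes for the fluidics stations. Type IV collagen and the basement membrane members as a whole lie higher on all knockout arrays, the laminin chains overlap, and the fibrillar collagens lie lower on all knockout arrays, which without Col27a1 they do not. The fibrillar mean includes Col5a2, which passed the filter through its wild type signals.

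Outside these classes Col8a1, which encodes a short-chain collagen of vessel walls and of the corneal basement membrane, was the only member called by this test. It was classed here with the short-chain network collagens, so its fall is not in the basement membrane count. It had signals of 40.8, 41.8 and 51.5 in knockout and of 76.8, 69.0 and 81.8 in wild type, without overlap, and was 1.70-fold lower (log2 change −0.77, SE 0.19, adjusted p = 0.0413). The knockout signals were near the filter, and the call ended when any array except knockout array 3 was left out (adjusted p 0.0921 to 0.163), with no filter (0.0801), within fluidics station 1 (0.0605) and with the station as a block (0.0507). A further probe set below the filter, 1455627_at, was also lower (18.5, 21.9 and 27.8 in knockout, 63.6, 62.8 and 69.9 in wild type). Col7a1, the anchoring fibril collagen, was at 0.06 (−0.66 to 0.79), with knockout array 3 far above the others (33.1, 35.9 and 79.6 in knockout, 42.9, 45.8 and 42.2 in wild type).

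Type VI collagen, which forms beaded filaments next to basement membranes, was not called. Col6a2 had signals of 147, 146 and 175 in knockout and of 169.6, 212 and 179.8 in wild type (log2 change −0.26, 95% interval −0.53 to 0.01). Col6a3 averaged 69.1 ± 2.51 in knockout and 86.0 ± 5.59 in wild type (−0.31, −0.65 to 0.02), and Col6a1 was at 0.06. Collagens that sit on the surface of fibrils lay on both sides of 0 without passing: Col16a1 was at 0.54 (adjusted p = 0.145), Col9a1 at −0.44 (adjusted p = 0.213), Col12a1 at −0.46 (adjusted p = 0.219), Col20a1 at 0.31 and Col14a1 at 0.09. The transmembrane collagens Col25a1 and Col23a1 were at 0.43 (−0.24 to 1.10) and 0.03 (−0.62 to 0.68).

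Fibronectin, the matricellular protein Sparc and the crosslinking oxidases did not pass. Fn1, which encodes fibronectin, a glycoprotein that rises in fibrosis, had signals of 60.1, 50.4 and 81.8 in knockout and of 54.8, 42.7 and 46.6 in wild type (log2 change 0.39, 95% interval −0.12 to 0.91). Sparc, a collagen-binding glycoprotein, averaged 412 ± 12.0 in knockout and 416 ± 16.1 in wild type, and its interval of −0.17 to 0.14 is among the narrow ones of the set. Its further probe sets were at 0.14 and 0.18. Loxl1, an oxidase of elastic fibres, was at 0.18 (−0.24 to 0.61), and Lox, the main collagen oxidase, fell below the filter. The signals of the 21 members below the filter ran from 1.00 to 55.0, and 3 of these had groups without overlap. Among all tested genes 25.2% had such groups, and the share among all dim genes was not computed. In 1 of the 3, Col6a4, the signals were 28.2, 18.9 and 23.8 in knockout and 50.2, 44.1 and 48.0 in wild type. Its other probe set, 1429072_at, also below the filter, had the opposite sign (log2 change 0.44).

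**Figure D4:**
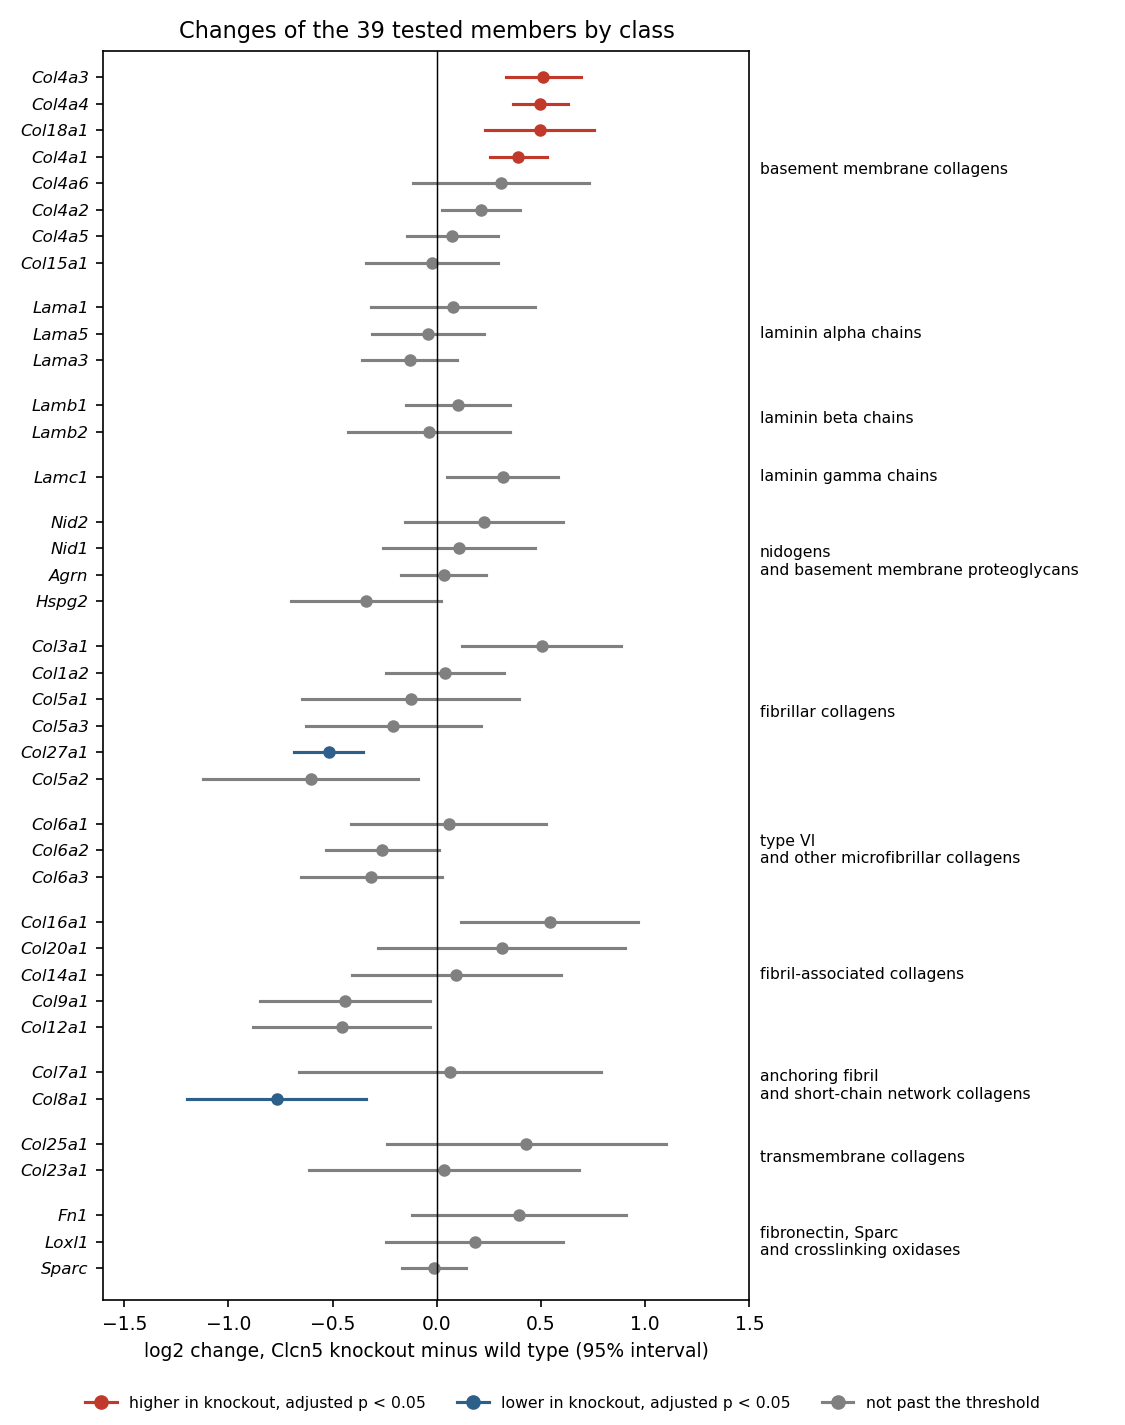
Log2 change, Clcn5 knockout minus wild type, with its 95% interval for the 39 tested members, grouped by class; red marks members higher and blue members lower in knockout at a limma adjusted p under 0.05. The 4 red members are all basement membrane collagens, and the blue ones are Col27a1 and Col8a1.

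Enzymes that fold and hydroxylate collagen showed 1 call in 15 tested genes. For this list and those that follow, the share called over all tested genes was 6.48%. The lists were chosen with earlier results of these data known, so their counts beside that share are description only. Crtap, a subunit of the complex that hydroxylates prolines in collagen, averaged 638 ± 15.9 in knockout and 534 ± 28.4 in wild type, which is a rise by a log2 change of 0.26 (adjusted p = 0.045). The lysyl hydroxylase gene Plod1 (−0.38, adjusted p = 0.147) and the galactosyltransferase gene Colgalt1 (−0.33, adjusted p = 0.0805) did not pass, and the list's median was −0.02. Of 7 tested genes of procollagen processing and crosslinking, 1 rose. It was Mep1b, a subunit of the brush border protease meprin, which can cleave procollagen, at 396 ± 20.5 in knockout and 151 ± 7.97 in wild type (log2 change 1.39, adjusted p = 6.73e-06). Pxdn, the peroxidasin that crosslinks type IV collagen, was at 0.14 (adjusted p = 0.570).

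Among matrix receptors 2 of 14 tested genes rose and none fell, where 3.24% of all tested genes passed in each direction. Itgb6, the beta chain of an epithelial integrin that binds fibronectin and activates latent TGF-beta, averaged 674 ± 49.6 in knockout and 349 ± 56.6 in wild type (log2 change 0.96, adjusted p = 0.000335). Dag1, which encodes the laminin receptor dystroglycan, averaged 741 ± 36.9 in knockout and 594 ± 28.4 in wild type (log2 change 0.32, adjusted p = 0.0173). The median of the list was 0.01. Among 16 tested matrix proteases and inhibitors 1 rose, the aggrecanase gene Adamts1 (162 ± 5.16 in knockout, 112 ± 3.92 in wild type; log2 change 0.53, adjusted p = 0.014), with a list median of −0.12. The membrane-type protease gene Mmp24 was at −0.76 (adjusted p = 0.0773).

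Of 17 tested genes for other matrix proteins 2 rose and 1 fell, again beside 3.24% of all tested genes in each direction. The netrin genes Ntn1 and Ntn4, whose products are laminin-related and in the case of Ntn4 bind laminin, were the rising genes. Ntn1 was at 0.37 (adjusted p = 0.00915) and Ntn4 at 0.36 (adjusted p = 0.0104) on the log2 scale. Smoc1, a Sparc-related basement membrane protein, averaged 28.3 ± 13.9 in knockout and 74.5 ± 8.68 in wild type (log2 change −1.55, SE 0.39, adjusted p = 0.0412), with knockout signals below the filter. The median of that list was −0.06.

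Some markers of other cells were higher on the same arrays, where 3.24% of all tested genes were called higher. The summed signal of 8 podocyte markers was 1738 to 1958 in knockout and 1376 to 1407 in wild type, and 2 of the 8 rose, Nphs1 (log2 change 0.64) and Synpo (0.73). The sum of 6 genes listed as parietal epithelial markers was 2337 to 2513 in knockout and 1883 to 2168 in wild type. The 3 rises were Dkk3, Cldn1 and Pax8. Whether these signals came from parietal cells was not tested. Of these 6 markers 4 had a log2 change above 0 and 2 below. Podocytes are a known source of the Col4a3, Col4a4 and Col4a5 chains. The part of these cells in the Col4a3 and Col4a4 rises was not tested.

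Leukocyte markers summed to 3103 to 3171 in knockout and 2158 to 2194 in wild type, with 3 rises in 11 tested. The sum over thick ascending limb markers was 11731 to 12946 in knockout and 9991 to 10714 in wild type, and over distal convoluted and connecting tubule markers 18381 to 19441 in knockout and 15629 to 17888 in wild type. The sum over markers of the S3 segment was 10025 to 10951 in knockout and 8881 to 9259 in wild type. The single markers were mixed. Below 0 were 2 of 6 tested thick ascending limb markers, 1 of 6 distal markers and 3 of 8 S3 markers. Those called higher numbered 2, 3 and 1 in that order, and none was called lower. The part of the marker differences in the members' results was not tested. The summed signal of 9 collecting duct markers was lower, 3265 to 3541 in knockout and 3596 to 3936 in wild type. Of these 9 markers 2 fell and 1 rose, 4 had a log2 change above 0, and the median was −0.03. Sums of endothelial markers (3341 to 3617 in knockout, 3342 to 3495 in wild type) and of fibroblast, pericyte and smooth muscle markers (1253 to 1324 in knockout, 1211 to 1264 in wild type) overlapped, and none of their members was called. Markers of the S1 and S2 segments, the labelled tissue, were present at 34284 to 36731 in knockout and 33497 to 37914 in wild type, and no marker of any list was at 0. Among the 10 S1 and S2 markers 1 fell and none rose, 4 had a log2 change above 0 and 6 below, and the median was −0.03.

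**Figure D5:**
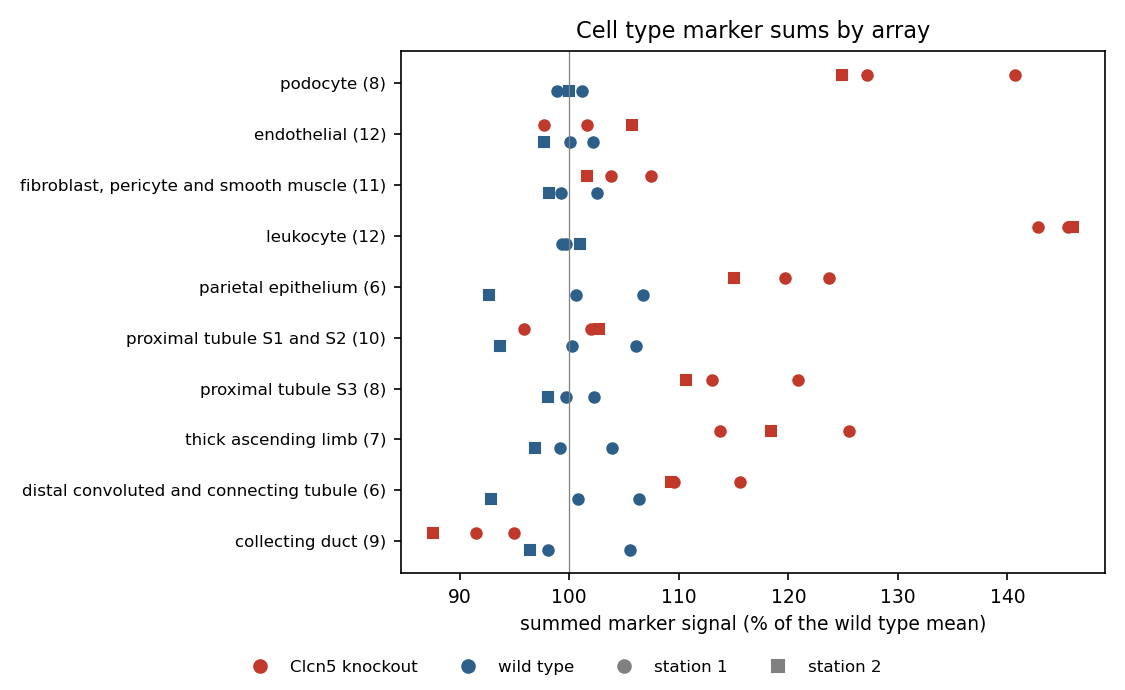
Summed signal of each cell type's markers on each array, as a percentage of the wild type mean, with the number of markers on the array in brackets; red is Clcn5 knockout, blue is wild type, and shapes mark the fluidics stations. Podocyte, leukocyte, parietal, S3, thick ascending limb and distal sums lie higher on all knockout arrays, collecting duct sums lower, and the others overlap.

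Median signals lay between 40.9 and 48.8, with knockout array 3, which alone had another solution lot, at the upper end. Knockout array 3 and wild type array 2 ran on fluidics station 2 and the other 4 on station 1. Within station 1 the log2 changes were 0.34 for Col4a1, 0.46 for Col4a3, 0.52 for Col4a4, 0.43 for Col18a1, −0.46 for Col27a1 and −0.94 for Col8a1. Between the single arrays of station 2 they were 0.49, 0.61, 0.44, 0.62, −0.65 and −0.42 for the same genes in that order. All 6 kept their direction on both stations.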

How the data were processed

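The deposited values are linear signal intensities for 6 arrays. The submitters' processing notes name GCOS 1.4 and MAS5 as the authors' tools. Per the labels, total RNA was amplified in a single round from an oligo dT primer. With 2% trimmed at each end, each array's deposited intensity averaged 150.001, and no other normalization is stated. Detection calls and a genome build were not given in the sources used here. Precision is limited by having 3 arrays per group, with a median standard error over all tested genes of 0.115 on the log2 scale. Over the tested members it was larger, at 0.171.

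Log2 was taken with no pseudocount. Of 45037 probe sets that are not controls, 22519 reached the median mean signal of 41.9. Genes were named from probe sets with a single symbol in the platform annotation, and each gene was represented by the one with the highest mean over all arrays. The groups were compared in limma 3.58.1 (R 4.3.3; lmFit, then eBayes with a trend on intensity), two-sided, with Benjamini-Hochberg adjustment over 11620 genes at 0.05. A fold change is a ratio of geometric means. The fit was tested on simulated data. Tables and plots used Python 3.11.15, pandas 2.3.3 and matplotlib 3.10.9.

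The members, classes and lists were chosen with earlier results of these data known. Named genes are Clcn5, every called member, all type IV, laminin, linker and fibrillar members, up to 2 others per class by signal, and per pathway list the called genes or those with the smallest p. Others were named after their values were seen. Records of the array runs, which are text, gave station and solution lot. Alternatives changed the filter, the pseudocount (50), the normalization, the probe set, the variance model, the station or replicate block, the arrays and the threshold.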

Additional observations from a re-analysis of the deposited data

How the results depend on the processing

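Col4a1, Col4a3, Col4a4 and Col27a1 kept their calls in all 16 alternative fits, including those without 1 array, while Col18a1 kept its call in 9 and Col8a1 in 6. These fits do not count probe sets taken singly. By limma a further probe set each of Col4a1 (adjusted p = 0.134), Col4a3 (0.173), Col4a4 (0.0509) and Col18a1 (0.243) did not pass. That of Col27a1 and another of Col4a4 did. No result named here changed sign while called. The count of members that fell was 1, Col27a1 alone, with no filter, with a stricter filter, within station 1, with the station as a block, with the replicate block (where Col8a1 had an adjusted p of 0.0676) and at a threshold of 0.01, and without 1 array it was 1 to 2. Members changed were 4 to 6 and members higher 3 to 4 without 1 array. The labels do not say whether the replicate numbers pair the samples. Deviations of same-numbered arrays correlated at 0.02, 0.03 and −0.03, which with 3 arrays per group cannot settle it. The replicate block gave 765 called genes in all. Over all genes 487 were called without the intensity trend, 458 within station 1, 424 at a threshold of 0.01 and 503 to 733 without 1 array. The basement membrane median was 0.063 to 0.18 without 1 array, with 0.18 reached without knockout array 1 or wild type array 2. The fibrillar median was 0.039 with no filter, −0.34 within station 1 and −0.33 to −0.02 without 1 array. Dim probe sets limit what can be said of 21 members, since no detection calls were used.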

Other observations

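Col1a1, which makes the main chain of type I collagen, had signals of 28.2, 24.2 and 23.5 in knockout and of 7.42, 8.51 and 4.37 in wild type on 1423669_at, a probe set below the filter that was singled out after its values were seen. Its brighter probe set, 1455494_at, gave 31.5, 38.6 and 54.1 in knockout and 26.0, 23.0 and 35.1 in wild type, with overlapping groups. Both were too dim for a test here. Col25a1, also singled out after its values were seen, a transmembrane collagen, differed by 1.42 on the log2 scale between the arrays of station 2 and by −0.07 within station 1.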
